A study of Mus musculus with 107 samples.

Results

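The genes described here are the platelet-derived growth factor (PDGF) ligands Pdgfa and Pdgfb, their receptors Pdgfra and Pdgfrb, and the pericyte markers Rgs5, Kcnj8, Abcc9, Mcam, Notch3 and Cspg4. They were chosen by symbol, as the rows of the deposited expression table that carry these names, and they are 10 of its 50686 genes. The samples are RNA-seq libraries of tumors grown under the skin in 12 mouse syngeneic tumor models, in which a mouse cancer cell line grows in a mouse of the matching strain. The 35 treatment-naive tumors (Base) were taken at a volume of about 100 mm3, and the 36 untreated (NT) and 36 lenvatinib-treated (LEN) tumors were taken on day 8, after once-daily oral LEN at 10 mg/kg in the LEN group. Every group held 3 tumors except treatment-naive MC38, with 2. The values are TPM, a level per transcript length that is scaled to a total of 1000000 in each tumor, so levels can be set side by side between genes.

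All mice were implanted in the flank at 7 weeks of age, and the strain was that of the cell line in all 3 groups. BALB/cAnNCrlCrlj mice carried 4T1 and EMT6 (breast cancer), BNL 1ME A.7R.1 (hepatocellular carcinoma), CT26.WT (colorectal cancer), and Renca and RAG (renal cell carcinoma, RAG having been adapted in vivo). C57BL/6NCrl mice carried B16-F10 (melanoma) and MC38 (colorectal cancer), and C57BL/6JCrl mice carried LL/2 (lung cancer). C57L/J mice carried Hepa 1-6 (hepatocellular carcinoma), DBA/2NCrl mice KLN205 (lung cancer) and C3H/HeNCrl mice MBT2 (bladder cancer). The hosts were male for Hepa 1-6 and BNL 1ME A.7R.1 and female for the other models. Each model rests on 1 transplanted cell line, and host sex and strain cannot be told apart from the cell line. Because cancer cells and host cells are both of mouse origin and whole tumors were sequenced, a lower level from fewer cells of a type cannot be told apart from less RNA per cell, nor a transcript of the cancer cells from that of the host.

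Pericytes are mural cells wrapped around capillaries. In the textbook account, endothelial cells secrete PDGF-B, which binds PDGF receptor beta on pericytes and keeps them on the vessel wall, while PDGF-A acts mainly through PDGF receptor alpha, a receptor of fibroblasts and other mesenchymal cells. LEN is a tyrosine kinase inhibitor of the receptors encoded by Flt1, Kdr and Flt4, of the fibroblast growth factor receptors, and of those encoded by Pdgfra, Kit and Ret.

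Rgs5, Kcnj8 and Abcc9 had a lower mean in LEN than in NT in all 12 models, so the bases just before their annotated starts are shown. They are taken from RefSeq on GRCm38.p6, in which 8 of the 10 genes had a promoter entry (all but Pdgfb and Pdgfrb), and only bases outside the GENCODE gene are printed. Each is written 5′ to 3′ on the strand of the gene, at chr1:169655251-169655500 on the plus strand for Rgs5, and at chr6:142571615-142571864 and chr6:142702316-142702524 on the minus strand for Kcnj8 and Abcc9. Capitals mark matches to the motifs searched on both strands.
Rgs5: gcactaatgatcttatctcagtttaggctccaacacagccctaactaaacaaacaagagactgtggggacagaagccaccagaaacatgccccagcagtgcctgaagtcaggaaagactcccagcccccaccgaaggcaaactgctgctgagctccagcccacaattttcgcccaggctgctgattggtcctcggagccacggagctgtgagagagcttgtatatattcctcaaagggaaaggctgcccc
Kcnj8: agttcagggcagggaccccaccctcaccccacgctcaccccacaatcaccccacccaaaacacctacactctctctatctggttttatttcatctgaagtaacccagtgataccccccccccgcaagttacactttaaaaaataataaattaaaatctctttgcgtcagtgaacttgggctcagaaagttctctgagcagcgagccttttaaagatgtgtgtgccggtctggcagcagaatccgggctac
Abcc9: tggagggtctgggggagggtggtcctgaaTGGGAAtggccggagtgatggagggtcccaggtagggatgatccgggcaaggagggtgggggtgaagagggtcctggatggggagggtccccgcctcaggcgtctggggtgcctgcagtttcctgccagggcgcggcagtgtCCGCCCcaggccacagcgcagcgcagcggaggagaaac
The motifs were the core of the Notch effector RBPJ (TGGGAA), the GC box (GGGCGG), the TATA box (TATAAA) and the CArG box of smooth muscle genes. The Abcc9 stretch of 209 bases held 1 RBPJ core, at position -221 from the RefSeq start, which lies inside the GENCODE gene, and 1 GC box on the opposite strand, at position -79. Of 32851 mouse promoters, 18.6% held the RBPJ core and 26.5% the GC box in a window of that length. The 250 bases of Rgs5 and of Kcnj8 held none of the 4 motifs, which were found in 21.6% (RBPJ core), 32.7% (GC box), 12.4% (TATA box) and 1.47% (CArG box) of promoters at this length. These are letter matches, and binding was not measured.

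How deeply each tumor was sequenced cannot be read from TPM, so the counting error behind a value is unknown. The share of TPM from protein-coding genes was 37.1% to 62.4% in Base and NT tumors and 27.5% to 66.6% in LEN tumors, and the lowest share was that of 4T1 LEN replicate 4. None of the 10 genes was at 0 in any tumor. Of 14 further pericyte markers, Higd1b, Vtn and Atp13a5 did not reach a mean of 1 TPM over the day 8 tumors, and the other 11 did.

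In GENCODE M21 on GRCm38 all 10 genes are protein-coding. The ligand genes lie on chromosome 5 from 138976014 to 138997370 (Pdgfa, ENSMUSG00000025856) and on chromosome 15 from 79995874 to 80014977 (Pdgfb, ENSMUSG00000000489). Pdgfra (ENSMUSG00000029231) lies on chromosome 5 from 75152292 to 75198215 and Pdgfrb (ENSMUSG00000024620) on chromosome 18 from 61045150 to 61085061. Mcam (ENSMUSG00000032135) and Cspg4 (ENSMUSG00000032911) are both on chromosome 9, from 44134469 to 44142727 and from 56865033 to 56899870. Notch3 (ENSMUSG00000038146) is on chromosome 17 from 32120820 to 32166852 and Rgs5 (ENSMUSG00000026678) on chromosome 1 from 169655501 to 169695813. Kcnj8 (ENSMUSG00000030247) and Abcc9 (ENSMUSG00000030249) are neighbors on the minus strand of chromosome 6, from 142564837 to 142571614 and from 142587862 to 142702315, with 16247 bases between them. Pdgfa, Pdgfb, Pdgfra, Mcam, Notch3 and Abcc9 overlap an annotated antisense gene, and the sources used here do not say whether counting used the strand, so reads of such partners cannot be told apart.

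Pdgfa was present in every model, and its level in treatment-naive tumors differed between models (limma F test of 11 contrasts, adjusted p = 5.22e-17). This held for each of the 10 genes, at adjusted p from 5.22e-17 to 9.29e-08, and for 93.6% of all 17542 genes tested. The group means of Pdgfa in Base ran from 6.82 ± 0.474 TPM (SD, n = 3) in B16-F10 to 62.1 ± 8.01 TPM (SD, n = 3) in Hepa 1-6. In the order of the 12 Base means, 7 of the 11 neighboring models had tumor values that did not overlap. Pdgfb was ordered otherwise. The 3 Base tumors of RAG held 33.2, 35.1 and 40.1 TPM of Pdgfb, while those of B16-F10 held 3.46, 3.48 and 4.36 TPM. Renca followed RAG at 26.3 ± 1.70 TPM (SD, n = 3), so both renal cell carcinoma models were at the top of the Pdgfb order.

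The receptors spread more widely. Pdgfra means in the NT tumors spanned a ratio of 118 between models, from 1.05 ± 0.400 TPM (SD, n = 3) in B16-F10 to 124 ± 10.6 TPM (SD, n = 3) in BNL 1ME A.7R.1. MBT2, LL/2, EMT6 and 4T1 stood between 29.9 and 51.2 TPM, and of the 11 neighboring pairs of NT models 5 did not overlap. Pdgfrb in NT was also highest in BNL 1ME A.7R.1, with tumors at 131, 136 and 140.1 TPM, and EMT6 followed at 61.0 ± 12.3 TPM (SD, n = 3). LL/2 and B16-F10 were lowest, at 5.55 ± 0.241 and 5.35 ± 1.36 TPM (SD, n = 3 each), and their tumor values overlapped. The summed level of 11 fibroblast markers was likewise highest in BNL 1ME A.7R.1 NT tumors, at 11928 ± 935 TPM (SD, n = 3), against 174 ± 14.7 TPM (SD, n = 3) in B16-F10 NT tumors. Its part in the receptor levels was not tested.

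**Figure D1:**
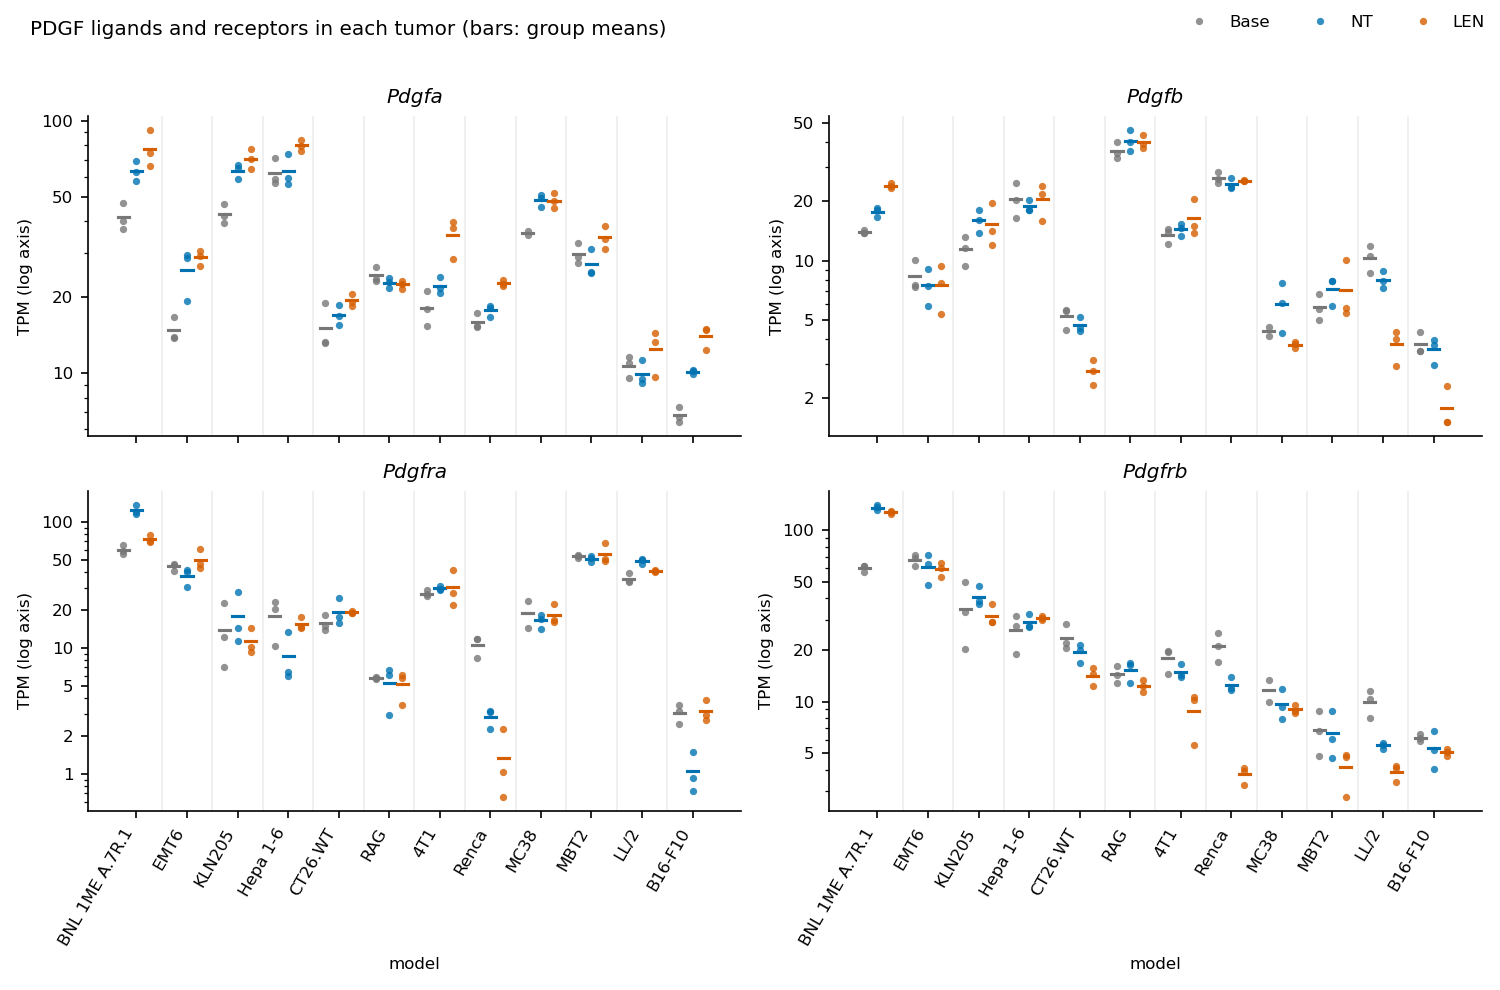
TPM of Pdgfa, Pdgfb, Pdgfra and Pdgfrb in each tumor (points, log axis) and the group mean (bars) in Base, NT and LEN, with models in falling order of mean Pdgfrb in NT. Pdgfra and Pdgfrb were highest in BNL 1ME A.7R.1 NT tumors, at means of 124 and 136 TPM, while Pdgfb was highest in RAG.

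Rgs5, a regulator of G-protein signaling and a usual marker of tumor pericytes, was highest in treatment-naive Renca, where the 3 tumors held 42.0, 49.4 and 50.5 TPM. MC38 was lowest in Base, with tumors at 2.92 and 3.56 TPM. Among NT tumors Hepa 1-6 led at 44.2 ± 0.884 TPM (SD, n = 3), apart from Renca at 25.9 ± 4.47 TPM (SD, n = 3). Kcnj8, the pore-forming subunit of an ATP-sensitive potassium channel, and Abcc9, the sulfonylurea receptor subunit of the same channel, were at lower levels. Their NT means ran from 0.697 ± 0.338 TPM in MC38 to 7.15 ± 0.190 TPM in Hepa 1-6 for Kcnj8, and from 1.39 ± 0.233 TPM in LL/2 to 7.07 ± 0.976 TPM in Renca for Abcc9 (SD, n = 3 each). In the NT order of Abcc9, none of the 11 neighboring pairs of models was free of overlap (0 pairs), so that order is not resolved step by step.

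The remaining markers had high levels in particular models. Mcam encodes the adhesion molecule CD146, known from melanoma cells, endothelium and pericytes. Its NT tumors of KLN205 held 151, 158 and 169 TPM, above every other NT tumor, and B16-F10 came next at 42.9 ± 5.76 TPM (SD, n = 3). Cspg4 encodes the proteoglycan NG2, and its NT mean was 45.7 ± 2.71 TPM (SD, n = 3) in BNL 1ME A.7R.1 and at most 11.4 TPM in the other models. Notch3, the Notch receptor of mural cells, was highest in Hepa 1-6 and KLN205, at 13.7 ± 0.0611 and 13.0 ± 0.760 TPM in NT (SD, n = 3 each), with overlapping tumors. The summed level of the 14 further pericyte markers was highest in MBT2 NT tumors, at up to 185 TPM, whereas Rgs5 was lowest there among the NT means, at 4.84 ± 1.68 TPM (SD, n = 3).

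**Figure D2:**
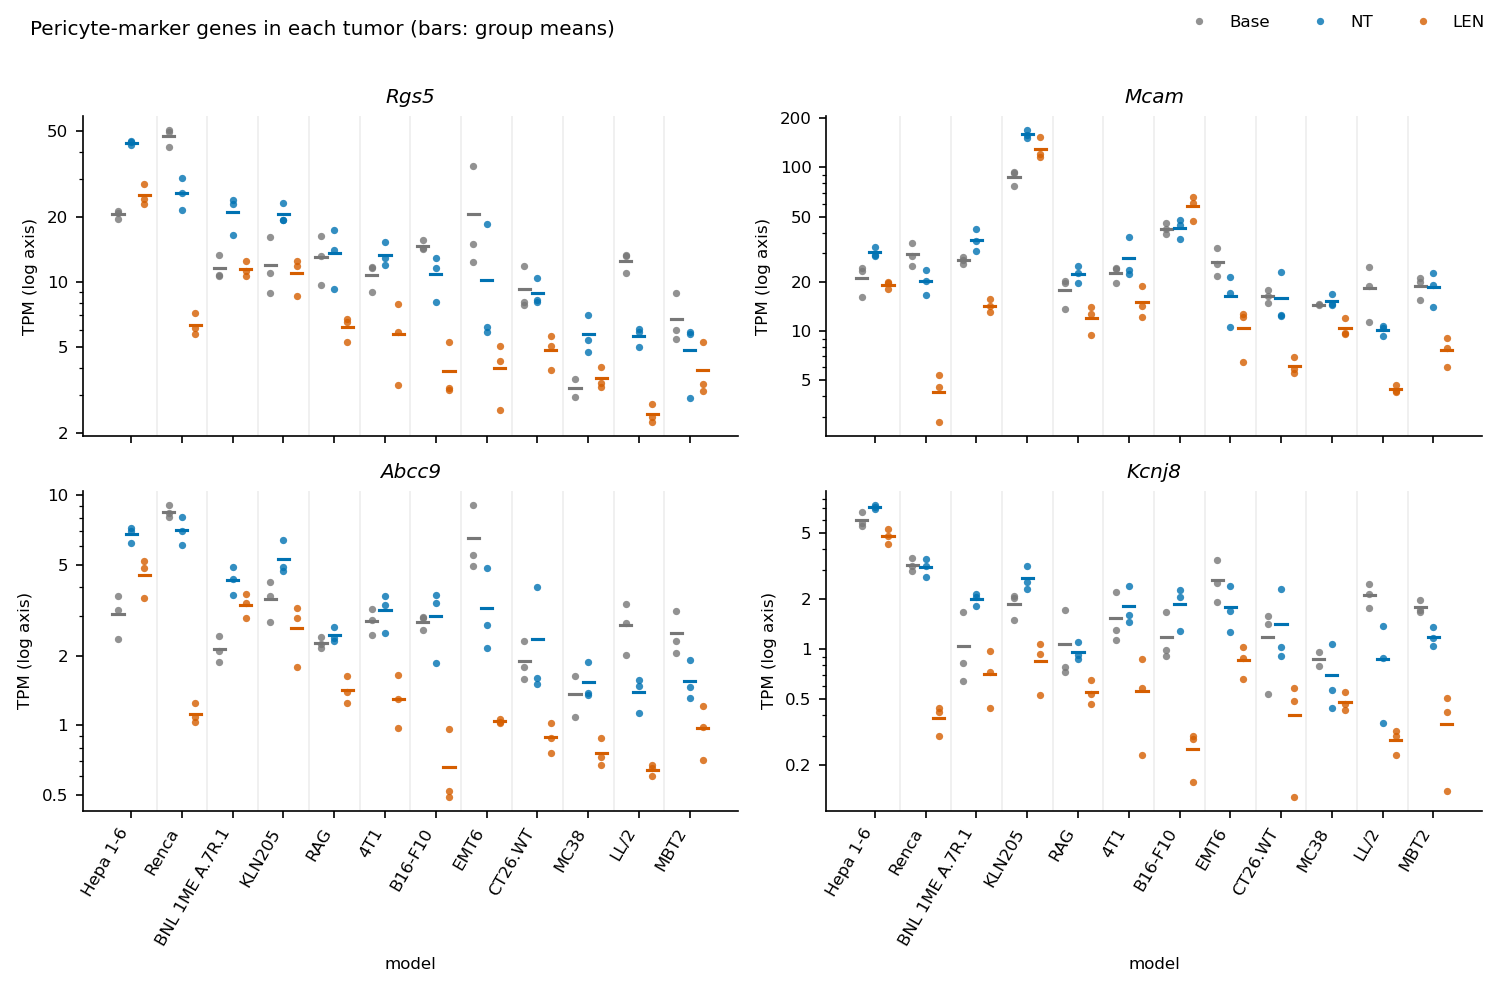
TPM of Rgs5, Mcam, Abcc9 and Kcnj8 in each tumor (points, log axis) and the group mean (bars) in Base, NT and LEN, with models in falling order of mean Rgs5 in NT. For Rgs5, Abcc9 and Kcnj8 every LEN tumor lay below every NT tumor of the same model in 11 of the 12 models, and Mcam in B16-F10 had a LEN mean above its NT mean. Over all genes 10.9% of gene and model pairs had all LEN tumors below.

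The comparison of LEN with NT sets side by side tumors taken on the same day, after a week with or without the drug. The study reports that LEN held back growth to differing degrees between models, up to tumor reduction. Tumor size on day 8 can thus differ with treatment, and its part in the results was not tested. As a mean over the 12 models (limma on log2(TPM + 1), 72 tumors), Rgs5, Kcnj8, Abcc9 and Mcam fell most, to between 0.521 and 0.596 of the NT level on the TPM + 1 scale, and Pdgfrb, Cspg4, Notch3 and Pdgfb fell less, while Pdgfa rose. Thus 8 of the 10 genes were lower, 1 was higher and Pdgfra was not called. Among all 17351 genes tested, 9.87% were called lower and 13.7% higher. Of all called genes 41.9% were lower, a split that was 58.1% after rescaling by the upper quartile and 52.2% after rescaling over protein-coding genes. The 10 genes had a median log2 change of -0.32, against -0.00189 over all genes tested. A change on this scale understates that of low genes such as Kcnj8. Standard errors and p-values of a mean over models rest on the spread of tumors within groups. They do not measure how far the 12 models differ from each other. Leaving out any 1 of the 72 tumors, 4T1 LEN replicate 4 included, left 8 genes lower and 1 higher.

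Pdgfa, the ligand of the alpha receptor, ranged from 9.14 to 73.6 TPM over the 36 NT tumors (median 23.98) and from 9.63 to 91.6 TPM over the 36 LEN tumors (median 29.8). The ranges overlapped across models, and within a model every LEN tumor was above every NT tumor in 5 models (4T1, B16-F10, Hepa 1-6, MBT2 and Renca). Over all genes tested, 13.5% of gene and model pairs had all LEN tumors higher in this way and 10.9% had all LEN tumors lower, with shares in single models from 2.75% to 38.1% and from 5.02% to 23.7%. Its mean log2 change was 0.26 (SE 0.036, limma adjusted p = 1.12e-07), with 10 of 12 model means higher. The largest ratio of mean TPM was 1.58, in 4T1, where NT tumors held 20.8, 21.8 and 24.03 TPM and LEN tumors 28.3, 37.5 and 39.6 TPM. All 4T1 LEN values thus exceeded the NT values. The highest of them, 39.6 TPM, was that of LEN replicate 4, the tumor with 27.5% of TPM from protein-coding genes, and without it the ratio was 1.48.

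Pdgfb, the ligand that recruits pericytes, ranged from 2.94 to 46.0 TPM in NT (median 11.2) and from 1.52 to 43.5 TPM in LEN (median 11.1). Its mean log2 change was -0.19 (SE 0.051, limma adjusted p = 0.00453), with 8 model means lower and 4 higher. The call rested on few models. Without B16-F10 the change was -0.14 (limma adjusted p = 0.0603) and without LL/2 it was -0.12 (limma adjusted p = 0.106). In LL/2 the NT tumors held 7.24, 7.93 and 8.87 TPM of Pdgfb and the LEN tumors 2.93, 4.01 and 4.33 TPM, with no overlap. BNL 1ME A.7R.1 went the other way, from 16.7, 18.0 and 18.6 TPM in NT to 23.3, 24.1 and 24.8 TPM in LEN.

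Pdgfra, the receptor of the set that LEN targets, ranged from 0.730 to 136 TPM in NT (median 17.9) and from 0.660 to 78.6 TPM in LEN (median 19.0). Its mean log2 change was 0.02 (SE 0.072, limma adjusted p = 0.913), with 5 model means lower and 7 higher, and the sign turned to -0.01 after rescaling by the upper quartile. The effect differed between models (limma F test of 11 contrasts, adjusted p = 0.000227). In BNL 1ME A.7R.1 the NT tumors held 116, 119.6 and 136 TPM and the LEN tumors 68.9, 70.5 and 78.6 TPM. In B16-F10 the NT tumors held 0.730, 0.930 and 1.5 TPM and the LEN tumors 2.68, 2.95 and 3.84 TPM. The groups did not overlap in either model, and they lay in opposite orders.

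Pdgfrb, the pericyte and fibroblast receptor of PDGF-B, ranged from 4.04 to 140.1 TPM in NT (median 15.3) and from 2.79 to 129 TPM in LEN (median 11.03). It fell by 0.37 on the log2 scale (SE 0.049, limma adjusted p = 3.52e-08), with 11 of 12 model means lower and Hepa 1-6 higher at a ratio of 1.06. Every LEN tumor was below every NT tumor in 5 models, namely 4T1, BNL 1ME A.7R.1, CT26.WT, LL/2 and Renca, against 10.9% of all gene and model pairs. Without Renca the change was -0.27 (limma adjusted p = 0.000117).

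Rgs5 had a median of 12.5 TPM over the 36 NT tumors (2.90 to 44.9) and of 5.26 TPM over the 36 LEN tumors (2.25 to 28.3). It fell by 0.94 on the log2 scale (SE 0.073, limma adjusted p = 7.08e-15). All 12 model means were lower, with ratios of mean TPM from 0.244 in Renca to 0.809 in MBT2, and MBT2 was the model in which NT and LEN tumors overlapped. In Hepa 1-6, with the highest NT level, the NT tumors held 43.2, 44.5 and 44.9 TPM and the LEN tumors 23.1, 24.2 and 28.3 TPM, with a gap between the groups.

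The channel subunits were both lower. Kcnj8 had a median of 1.65 TPM in NT (0.36 to 7.33) and of 0.500 TPM in LEN (0.130 to 5.26), and it fell by 0.75 on the log2 scale (SE 0.051, limma adjusted p = 6.09e-17). Abcc9 had a median of 3.03 TPM in NT (1.13 to 8.07) and of 1.05 TPM in LEN (0.490 to 5.18), and it fell by 0.78 (SE 0.054, limma adjusted p = 7.88e-17). For each of the pair all 12 model means were lower, and NT and LEN overlapped in 1 model, MC38 for Kcnj8 and BNL 1ME A.7R.1 for Abcc9. With a pseudocount of 0.1, which weighs low values more, the changes were -1.41 for Kcnj8 and -1.14 for Abcc9.

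Mcam had a median of 22.6 TPM in NT (9.35 to 169) and of 12.2 TPM in LEN (2.79 to 154). It fell by 0.84 on the log2 scale (SE 0.063, limma adjusted p = 1.55e-15), with 11 of 12 model means lower and 9 models without overlap. B16-F10 was the exception in direction, with NT tumors at 36.5, 44.5 and 47.6 TPM and LEN tumors at 47.2, 61.0 and 65.8 TPM. These overlapped, and the difference of 0.42 was not called in that model. In KLN205, where Mcam was highest, the NT values of 151, 158 and 169 TPM overlapped with LEN values of 116, 121 and 154 TPM. Without B16-F10 the mean change over 11 models was -0.95 (limma adjusted p = 6.52e-16).

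Notch3 and Cspg4 changed less on average. Notch3 had a median of 3.44 TPM in NT (1.03 to 13.9) and of 2.14 TPM in LEN (0.550 to 16.5), and fell by 0.25 on the log2 scale (SE 0.041, limma adjusted p = 4.06e-06) with 9 of 12 model means lower. In KLN205 every LEN tumor was above every NT tumor, with 12.4, 12.9 and 13.9 TPM in NT and 14.5, 15.98 and 16.5 TPM in LEN. Cspg4 had a median of 3.5 TPM in NT (0.540 to 47.6) and of 2.27 TPM in LEN (0.370 to 45.2), and fell by 0.26 (SE 0.048, limma adjusted p = 2.43e-05) with 11 of 12 model means lower. Each of the 2 genes had 6 models in which every LEN tumor was below every NT tumor, against 10.9% of all gene and model pairs. In LL/2 and Renca this share was 23.7% and 19.4%.

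**Figure D3:**
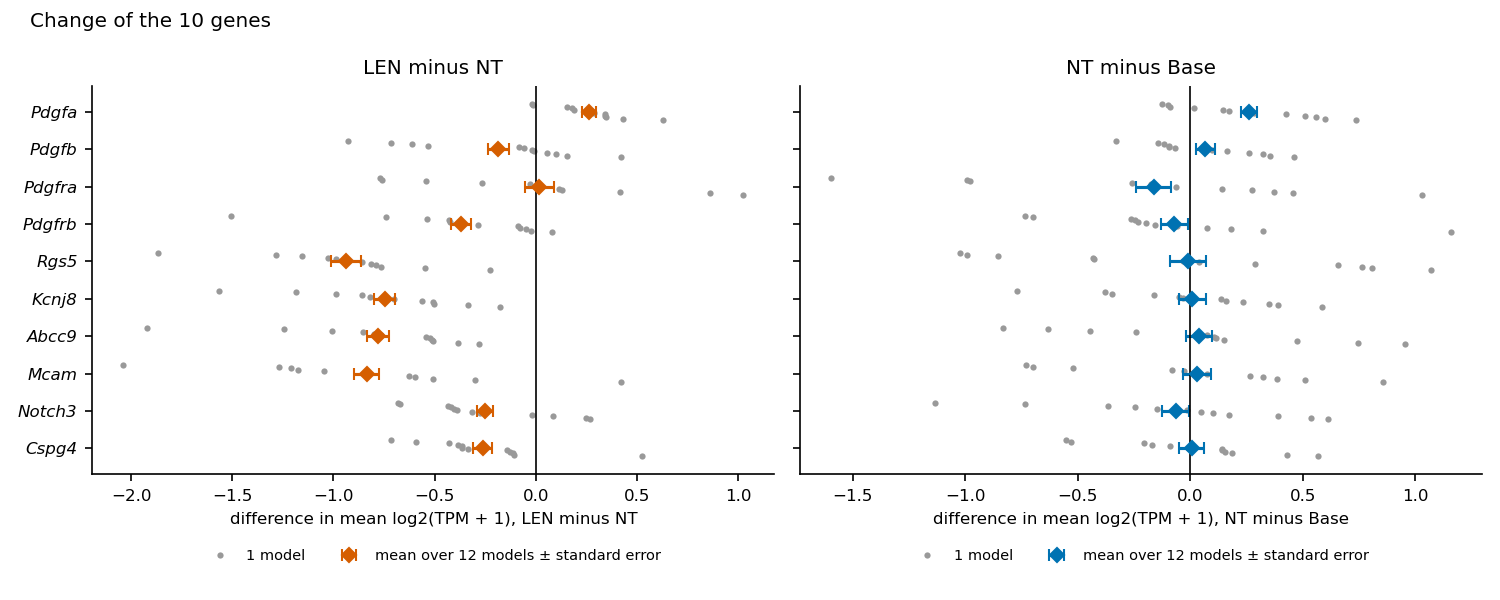
Difference in mean log2(TPM + 1) of the 10 genes, LEN minus NT (left) and NT minus Base (right), for each model (gray points) and as the mean over the 12 models with its standard error (diamonds). The standard error comes from the spread of tumors within groups, not from the spread of the gray points. On the left Rgs5, Kcnj8, Abcc9 and Mcam stand at -0.75 to -0.94 and Pdgfa at 0.26, and on the right Pdgfa at 0.26 is the gene called.

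The size of the LEN effect differed between models for 9 of the 10 genes, at adjusted p from 2.67e-06 (Mcam) to 0.0419 (Rgs5) in the limma F test, where 35.3% of all genes did. Pdgfa was not called (adjusted p = 0.0884). The effect also differed for 12 of 14 endothelial, 11 of 11 fibroblast, 5 of 5 skeletal muscle and 7 of 11 further pericyte markers. It differed for 1 of 6 melanocyte and 0 of 4 Schwann cell markers. Without Renca 5 of the 10 genes were called, namely Pdgfb, Pdgfra, Mcam, Notch3 and Kcnj8. Rgs5 was close to the threshold, and its adjusted p was 0.406 without Renca, 0.118 without MBT2, and 0.0660 with a pseudocount of 0.1. It was above 0.05 on leaving out each of 16 tumors in turn, with the highest value, 0.109, without Renca NT replicate 5.

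Each model was also fitted alone, with 3 tumors against 3. Of 111 gene and model pairs that passed the minimum of 1 TPM, 15 were called lower and 5 higher, against 1.30% lower and 3.56% higher over all such pairs of all genes. The calls came from Renca, B16-F10, BNL 1ME A.7R.1 and LL/2. The fit of all 72 tumors, which shares the spread between models, called 39 of 120 pairs lower and 5 higher, where all genes gave 2.88% and 4.17%. Its calls came from every model but MC38.

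In Renca 6 genes were lower (background 7.15%) and 2 higher (background 4.91%). Mcam went from 16.6, 20.2 and 23.8 TPM in NT to 2.79, 4.55 and 5.36 TPM in LEN. Abcc9 went from 6.12, 7.03 and 8.07 to 1.03, 1.09 and 1.25 TPM, and Rgs5 from 21.5, 25.7 and 30.4 to 5.72, 6.11 and 7.16 TPM. None of these LEN values reached the NT values. The log2 changes were -2.04 for Mcam (SE 0.21, limma adjusted p = 0.00162), -1.92 for Abcc9 (SE 0.13, limma adjusted p = 0.000402), -1.87 for Rgs5 (SE 0.14, limma adjusted p = 0.000541) and -1.57 for Kcnj8 (SE 0.15, limma adjusted p = 0.00125). Pdgfrb went from 11.7, 12.0 and 13.9 to 3.28, 3.93 and 4.07 TPM, a log2 change of -1.51 (SE 0.11, limma adjusted p = 0.000506). Cspg4 moved the other way, from 7.10, 7.52 and 8.49 to 11.1, 11.1 and 12.3 TPM, and was called higher (log2 change 0.52, SE 0.096, limma adjusted p = 0.0148), as was Pdgfa, whose call the fit of all 72 tumors did not keep (adjusted p = 0.0775 in limma). Renca was the model in which Cspg4 had a higher mean in LEN than in NT. The calls of Cspg4 and Pdgfa were both lost on leaving out Renca LEN replicate 2, 4 or 5, and 1 of the 2 without NT replicate 5, while 5 or 6 genes were called lower under each omission. In the same tumors the summed endothelial markers were 168 ± 15.2 TPM in NT and 86.7 ± 6.31 TPM in LEN (SD, n = 3 each). Their part in the result was not tested.

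In B16-F10 Rgs5, Kcnj8, Abcc9 and Pdgfb were lower (background 2.42%), and Pdgfa and Pdgfra were higher (background 8.57%). Rgs5 went from 8.03, 11.6 and 12.9 TPM in NT to 3.14, 3.24 and 5.24 TPM in LEN, and Kcnj8 from 1.28, 2.06 and 2.27 to 0.160, 0.290 and 0.300 TPM, without overlap in either. Their log2 changes were -1.28 (SE 0.22, limma adjusted p = 0.0156) and -1.18 (SE 0.22, limma adjusted p = 0.0205). The summed endothelial markers were 302 ± 11.5 TPM in NT and 306 ± 5.72 TPM in LEN (SD, n = 3 each). Sparcl1 and Eng, named after their values were seen, made up 208 and 242 TPM of these sums, and 11 of the 15 markers had a lower mean in LEN, among them Kdr and Cdh5. Pdgfra had a log2 change of 1.02 (SE 0.20, limma adjusted p = 0.0238). Other cell-type markers moved with these genes: the summed fibroblast markers were 174 ± 14.7 TPM in NT and 607 ± 74.0 TPM in LEN, the macrophage markers 76.3 ± 14.7 and 236 ± 42.1 TPM, and the skeletal muscle markers 10.0 ± 10.4 and 174 ± 39.5 TPM (SD, n = 3 each). Their part in the result was not tested. Without LEN replicate 2 or 3, or NT replicate 2 or 5, no B16-F10 gene of the set was called lower (0 genes), without LEN replicate 5 it was 1, and without NT replicate 4 it was 3. The 2 higher calls became 1 without LEN replicate 2 or NT replicate 2 or 4, and 0 without LEN replicate 3 or 5 or NT replicate 5.

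In BNL 1ME A.7R.1 Mcam, Rgs5, Kcnj8 and Pdgfra were lower (background 5.21%) and Pdgfb was higher (background 26.3%), a call that the fit of all 72 tumors did not keep (adjusted p = 0.0758 in limma). Mcam went from 30.7, 35.6 and 41.8 TPM in NT to 13.0, 14.1 and 15.7 TPM in LEN, a log2 change of -1.27 (SE 0.13, limma adjusted p = 0.000595). Pdgfra changed by -0.76 (SE 0.082, limma adjusted p = 0.000876), whereas Pdgfrb, at a similar NT level, changed by -0.09 and was not called. The LEN tumors of this model held 1842 ± 346 TPM of summed skeletal muscle markers against 81.7 ± 39.4 TPM in NT, while the summed endothelial markers were 410.3 ± 15.1 TPM in LEN and 577 ± 32.5 TPM in NT (SD, n = 3 each). The highest summed fibroblast markers of any tumor were 12781 TPM in NT and 10451 TPM in LEN, both in this model. The part of these markers in the result was not tested. In LL/2 Mcam was the gene called, lower (background 0.0774%), from 9.35, 10.4 and 10.7 TPM to 4.23, 4.29 and 4.65 TPM. The summed endothelial markers there were 123 ± 5.28 TPM in NT and 76.4 ± 3.87 TPM in LEN (SD, n = 3 each), lower in 15 of 15 markers, and their part in the result was not tested. The Mcam call was lost without LEN replicate 2, 3 or 4 or NT replicate 3, and 2 genes were called without NT replicate 2. The fit of all 72 tumors called 3 genes lower in LL/2, where it called 2.88% of all gene and model pairs lower. They were Mcam, Pdgfb (-0.93, limma adjusted p = 0.00148) and Rgs5 (-0.94, limma adjusted p = 0.0410), and leaving out any LL/2 tumor gave 2. In the other 8 models 0 genes of the set were called by limma fitted to the model alone, while at an unadjusted p under 0.05 there were 33 pairs lower and 6 higher of 74, against 5.59% and 7.37% of all gene and model pairs there. In these fits of a model alone, calls appeared on leaving out Hepa 1-6 NT replicate 4 (2 lower and 1 higher) and MBT2 NT replicate 5 (1 lower).

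In the fit of all 72 tumors, 7 of these 8 models had calls. In 4T1 5 genes were lower (background 15.8%) and 1, Pdgfa, was higher (background 2.81%). Without LEN replicate 4, the tumor with the lowest protein-coding share, 2 were lower, Abcc9 and Kcnj8, while Rgs5 had a log2 change of -0.87 (limma adjusted p = 0.0726). The other counts were lower genes, 3 in each of CT26.WT (background 0.346%), EMT6 (background 0.939%), KLN205 (background 2.46%) and RAG (background 0.703%), and 2 in MBT2 (background 1.22%). Hepa 1-6 had 1 lower, Rgs5 (background 0.939%), and 1 higher, Pdgfra (background 8.75%). These counts changed on leaving out single tumors. In CT26.WT there was 1 without LEN replicate 1 or 3 and none without NT replicate 5, and in RAG there was 1 without LEN replicate 2 or 3 or NT replicate 1 and none without NT replicate 5. In KLN205 there was 1 without LEN replicate 3 or NT replicate 4, in MBT2 1 without LEN replicate 3 or NT replicate 1 or 3, and in EMT6 1 without LEN replicate 3 or NT replicate 4 and 5 without NT replicate 1. The Hepa 1-6 call of Rgs5 was lost without its LEN replicate 1 or 4 or NT replicate 2, 3 or 4. In that model 0 genes were called higher without LEN replicate 1 or NT replicate 3, while leaving out a tumor of another model gave up to 4 lower. The rescalings by the upper quartile and over protein-coding genes gave 5 and 5 lower in EMT6, 4 and 5 in CT26.WT, and 4 and 2 in Hepa 1-6. The summed endothelial markers had a lower mean in LEN than in NT in all 7 models. They went from 172.5 to 111.8 TPM in 4T1, 100.7 to 47.7 in CT26.WT, 146.8 to 94.18 in EMT6 and 162 to 142.4 in Hepa 1-6. In KLN205 they went from 189.5 to 131.2 TPM, in MBT2 from 123.1 to 47.78 and in RAG from 119.1 to 72.25. Their part in the result was not tested.

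**Figure D4:**
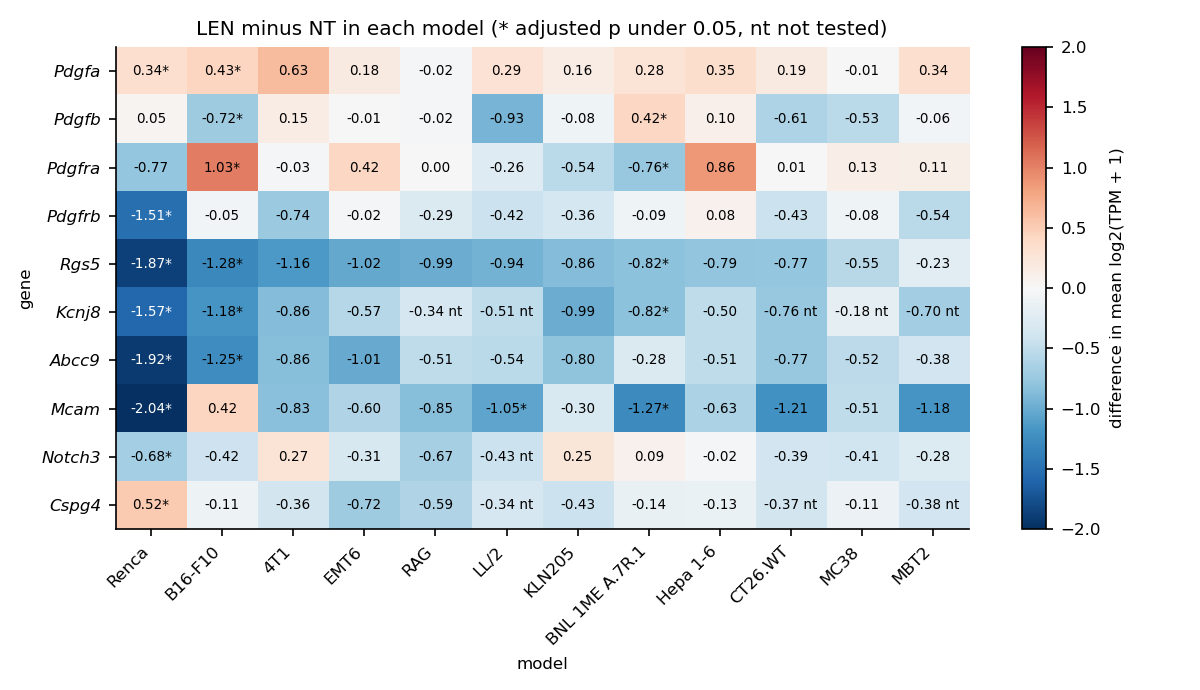
Difference in mean log2(TPM + 1), LEN minus NT, of each gene (rows) in each model (columns, ordered by Rgs5), with blue for lower and red for higher in LEN. Asterisks mark an adjusted p under 0.05 in the limma fit of the model alone and nt marks pairs under the minimum TPM. Renca holds the lowest value of Rgs5 (-1.87) and of Mcam (-2.04), and Cspg4 is higher in LEN in Renca alone among the 12 models.

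Of 16 further genes of PDGF signaling 15 were tested in the mean over models. With LEN 2 rose and 1 fell, where 13.7% of all genes were called higher and 9.87% lower, and the median log2 change was 0.02. The LEN effect differed between models for 8 of the 15 (limma F test, background 35.3%). The pair with the largest changes were Src, the kinase, at 0.17 (SE 0.025, limma adjusted p = 2.97e-07), and Plat, the protease that activates PDGF-C, at 0.12 (limma adjusted p = 0.103). The other called genes, named after their values were seen, were Crk at 0.07 (limma adjusted p = 0.0412) and Gab1 at -0.09 (limma adjusted p = 0.0264). The 14 further pericyte markers did not move as a block. Of the 11 tested, 5 fell and 4 rose, and the largest changes were rises of Des (desmin), at 0.83 (SE 0.11, limma adjusted p = 3.68e-08), and Steap4, at 0.31 (SE 0.063, limma adjusted p = 0.000141). Des is also a gene of skeletal muscle. All 5 skeletal muscle markers rose, with a median log2 change of 1.13 and a summed level from 2.44 to 149 TPM in NT tumors and from 2.79 to 2211 TPM in LEN tumors, and their part in the result was not tested.

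Most markers of endothelium, the cell layer that pericytes attach to, fell in the same comparison. Of 14 endothelial markers tested 13 fell, with a median log2 change of -0.73, led by Cdh5 (-1.17) and Cldn5 (-1.09), and the exception, Vwf, was named after its value was seen. The summed endothelial markers ranged from 87.5 to 601 TPM in NT (median 154) and from 36.2 to 425 TPM in LEN (median 94.7). Their part in the change of the pericyte genes was not tested. Of 6 smooth muscle markers tested 2 fell, Acta2 (-0.54, 12 of 12 model means lower) and Mylk (-0.32), and 1 rose. Of 15 genes of endothelial and mural signaling 7 fell and 2 rose, with Dll4, the Notch ligand of sprouting endothelium, at -0.98 and Ednrb at -0.65. Fibroblast markers were split, with 2 lower and 4 higher of 11, their summed level going from a median of 1301 TPM in NT to 1043 TPM in LEN. Among the receptors LEN targets, Flt4 (-0.74), Kdr (-0.71), Flt1 (-0.43) and Kit (-0.33) fell and Fgfr2 (0.29) and Ret (0.11) rose, while Fgfr1 (0.06), Fgfr3 (0.13) and Pdgfra (0.02) were not called and Fgfr4 was under the minimum TPM. Of the macrophage markers 5 of 6 fell (Mrc1 at -0.53 and Csf1r at -0.45), and of the platelet markers 1 of 3. Adipocyte markers gave 1 lower and 2 higher of 3, epithelial markers 4 higher of 5, and neither the 4 Schwann cell nor the 6 melanocyte markers tested were called (0 in either direction, and at an unadjusted p under 0.05 in limma 1 Schwann cell marker and 0 melanocyte markers).

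The comparison of NT with Base follows the genes as untreated tumors grew over the same week, and it shares its NT tumors with the LEN comparison. Pdgfa was the gene called, and it rose. Over the 12 models its mean log2 change was 0.26 (SE 0.036, limma adjusted p = 4.77e-07), with 9 model means higher, against 17.0% of 17428 genes called higher and 11.5% called lower. Base tumors held 6.43 to 71.3 TPM of Pdgfa (median 21.1). In EMT6 the 3 Base tumors held 13.7, 14.0 and 16.7 TPM and the NT tumors 19.3, 28.5 and 29.3 TPM, without overlap and with the largest ratio of means, 1.74.

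The pericyte markers had mean changes between -0.06 and 0.04, none of them called (limma adjusted p from 0.450 to 0.950). Pdgfb had 0.07 and Pdgfrb -0.07, and Pdgfra had -0.16 (SE 0.078, limma adjusted p = 0.115). At an unadjusted p under 0.05 the count of genes lower was 1, Pdgfra in the same limma fit, against 0 after adjustment. Pdgfra was called lower with a pseudocount of 0.1 (-0.23, limma adjusted p = 0.0385), after rescaling by the upper quartile (-0.21, limma adjusted p = 0.0350) and after rescaling over protein-coding genes (-0.26, limma adjusted p = 0.0153). Leaving out 1 tumor also gave this call for KLN205 Base replicate 1 or NT replicate 4 and Hepa 1-6 Base replicate 2 or NT replicate 4, as did leaving out BNL 1ME A.7R.1, KLN205 or LL/2, and without BNL 1ME A.7R.1 the count of genes lower was 2. Of all genes called in this comparison 40.3% were lower, and the split was 71.2% and 78.9% after the rescalings and 25.6% at a minimum of 5 TPM. Marker groups of other cells fell over this week in all genes tested, skeletal muscle (5 of 5, median -1.23) and adipocytes (4 of 4, median -0.90), and 7 of 11 fibroblast and 8 of 15 endothelial markers fell. Their summed levels had medians of 112 and 33.4 TPM for skeletal muscle, 30.8 and 17.9 TPM for adipocytes, 1816 and 1301 TPM for fibroblasts, and 172 and 154 TPM for endothelium, in Base and NT. Their part in the result was not tested. Of the 15 further PDGF pathway genes tested 8 rose and 0 fell (0 also at an unadjusted p under 0.05 in limma), with a median of 0.08 against 0.01 over all genes, and of 12 further pericyte markers 5 fell and 0 rose (0 also at that unadjusted p), with a median of -0.14.

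Means near 0 went with opposite changes in different models. For Rgs5 every NT tumor was below every Base tumor in 3 models (B16-F10, LL/2 and Renca) and above in 5 (4T1, BNL 1ME A.7R.1, Hepa 1-6, KLN205 and MC38), where 13.9% and 17.1% of all gene and model pairs were. These shares differed widely between models. All genes gave 12.1%, 10.7% and 23.9% below in B16-F10, LL/2 and Renca, and 23.4%, 36.6%, 3.47%, 45.8% and 14.1% above in 4T1, BNL 1ME A.7R.1, Hepa 1-6, KLN205 and MC38. All 10 genes differed between models in their change from Base to NT (limma F test of 11 contrasts, adjusted p from 2.82e-06 for Pdgfra to 0.0134 for Pdgfb), as did 66.5% of all genes. In the fit of all 71 tumors, 17 of 120 gene and model pairs were lower and 17 higher, against 5.22% and 8.69% over all genes. After rescaling by the upper quartile the pairs higher numbered 11 and after rescaling over protein-coding genes 9, with 17 lower under both. In LL/2 6 genes were lower (background 3.72%), namely Pdgfrb, Rgs5, Kcnj8, Abcc9, Mcam and Cspg4, and without LL/2 Base replicate 2 there were 2, without Base replicate 3 or NT replicate 1 there were 3. Rgs5 there went from 10.96, 13.1 and 13.4 TPM in Base to 5.02, 5.89 and 6.02 TPM in NT, without overlap, a log2 change of -1.02 (SE 0.27, limma adjusted p = 0.00728). In EMT6 5 genes were lower (background 11.7%), with Notch3 at -1.13 (SE 0.20, limma adjusted p = 2.56e-05), and Pdgfa was higher (background 21.6%). The genes lower numbered 7 after upper quartile rescaling, 8 after rescaling over protein-coding genes, 2 without EMT6 Base replicate 3 or NT replicate 1 and 3 without NT replicate 2. The Rgs5 values of EMT6 scattered, at 12.3, 15.1 and 34.6 TPM in Base and 5.86, 6.18 and 18.6 TPM in NT, and overlapped.

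BNL 1ME A.7R.1 was the reverse, with 7 genes higher in NT than in Base (background 22.5%). Pdgfrb went from 56.7, 61.7 and 62.2 TPM to 131, 136 and 140.1 TPM, a log2 change of 1.16 (SE 0.21, limma adjusted p = 2.32e-05). Pdgfra, Rgs5, Kcnj8, Abcc9, Notch3 and Pdgfa were the others called. The count higher was 4 after upper quartile rescaling, 3 after rescaling over protein-coding genes and 4 without Base replicate 1. The summed fibroblast markers of this model were 5777 ± 212 TPM in Base and 11928 ± 935 TPM in NT, and the endothelial markers 347 ± 19.7 and 577 ± 32.5 TPM (SD, n = 3 each), and their part in the result was not tested. In KLN205 5 genes were higher (background 30.5%), namely Pdgfa, Pdgfb, Rgs5, Mcam and Notch3. After either rescaling 0 genes were called higher there by limma, where an unadjusted p under 0.05 gave 2 (upper quartile) and 1 (protein-coding). Without Base replicate 1 or 3 there were 3 and without NT replicate 4 there were 2. Hepa 1-6 had 3 genes higher (background 1.07%), among them Rgs5, from 19.5, 20.9 and 21.3 TPM in Base to 43.2, 44.5 and 44.9 TPM in NT without overlap, a log2 change of 1.07 (SE 0.27, limma adjusted p = 0.00356). Its Pdgfra was lower (-0.98, limma adjusted p = 0.00665, background 19.6%), a call lost without Base replicate 3 or NT replicate 2 or 3. Leaving out Base replicate 2 or 3 or NT replicate 3 or 4 gave 2 genes higher in Hepa 1-6, and the rescalings gave 5 (upper quartile) and 4 (protein-coding).

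Renca had 4 genes lower in NT than in Base (background 10.3%), against 2 after upper quartile rescaling and 1, Pdgfra, after rescaling over protein-coding genes. Without Base replicate 2 or NT replicate 3 there was 1, and without NT replicate 2 there were 2. Pdgfra went from 8.29, 11.8 and 11.8 TPM to 2.25, 3.09 and 3.13 TPM, a log2 change of -1.60 (SE 0.27, limma adjusted p = 2.98e-05). Renca LEN tumors were at 0.660, 1.04 and 2.28 TPM of Pdgfra, which overlapped with NT. Rgs5 in Renca was at 47.3 ± 4.62 TPM in Base, 25.9 ± 4.47 in NT and 6.33 ± 0.745 in LEN (SD, n = 3 each), with 3 ranges that did not overlap. In B16-F10 Pdgfa was higher in NT than in Base (background 0.436%) and Pdgfra lower (background 1.69%), from 2.5, 3.13 and 3.52 TPM to 0.730, 0.930 and 1.5 TPM, and the LEN values of 2.68, 2.95 and 3.84 TPM overlapped with those of Base. The B16-F10 call of Pdgfa was lost without Base replicate 2 or 3 or NT replicate 5, and that of Pdgfra without Base replicate 1 or 2 or NT replicate 4 or 5. The summed fibroblast markers of B16-F10 Base tumors were 402 ± 76.6 TPM (SD, n = 3).

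Rgs5, Kcnj8 and Abcc9 were the most alike of the pericyte markers across groups. Over the 36 group means of log2(TPM + 1), Pearson's r was 0.94 between Rgs5 and Abcc9, 0.84 between Rgs5 and Kcnj8, and 0.84 between Kcnj8 and Abcc9, and among all 17428 genes with a mean of at least 1 TPM the 2 genes most like Rgs5 were Abcc9 and Kcnj8. Notch3 came next, with an r of 0.79 with Rgs5, 0.75 with Abcc9 and 0.66 with Kcnj8, and the lowest r between pericyte markers was 0.34, for Kcnj8 and Cspg4. In likeness to Rgs5 the gene at rank 3 was Rgs4 (r = 0.84), of the same gene family. For Notch3 the gene most like it was Heyl (r = 0.91), a Notch target and among the further pericyte markers, and for Kcnj8 it was Flt4 (r = 0.89). Pdgfrb was most like Bgn, a matrix proteoglycan (r = 0.89), Pdgfra most like Tns3 (r = 0.91), Mcam most like Rapgef5 (r = 0.86), Pdgfa most like Unc119b (r = 0.84), Pdgfb most like Cd24a (r = 0.88) and Cspg4 most like 4833422C13Rik (r = 0.88). Group means share the model, so these values describe 12 cell lines more than 36 independent points. The LEN groups are among them, so a shared fall with LEN is part of the r between Rgs5, Kcnj8 and Abcc9.

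Deviations of all tumors, Base included, from their group mean remove the model and the treatment. On that scale Rgs5 was most like Notch3 (r = 0.75), Abcc9 most like Rgs5 (r = 0.72), followed by Kdr (r = 0.63), and Kcnj8 most like Abcc9 (r = 0.56). Rgs5 and Kcnj8 had an r of 0.40 here, below that of Rgs5 with Mcam (0.59) or Cspg4 (0.53). Pdgfrb was again most like Bgn (r = 0.76). Pdgfra and Pdgfrb had an r of 0.62 here and of 0.41 over group means, whereas the ligand Pdgfb and its receptor Pdgfrb had 0.29 and 0.35. Pdgfra with Rgs5 had 0.24 here and -0.18 over group means. Tumors of a group share their strain and collection day, and the values are a description.

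**Figure D5:**
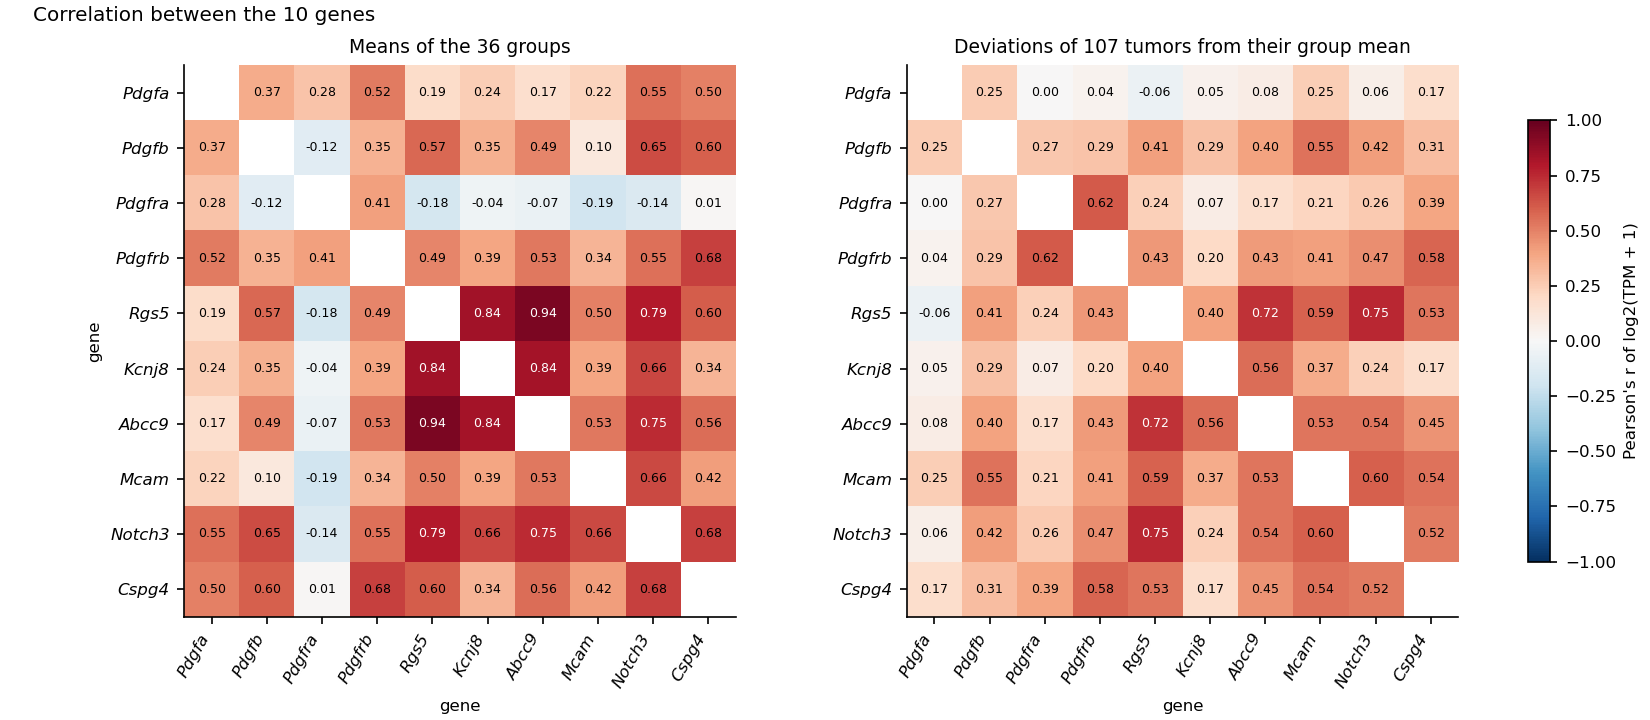
Pearson's r of log2(TPM + 1) between the 10 genes over the means of the 36 groups (left) and over the deviations of all tumors from their group mean (right), in red for positive and blue for negative values. On the left the block of Rgs5, Kcnj8 and Abcc9 holds values of 0.84 to 0.94, and Pdgfra is near or below 0 with each of the 6 pericyte markers.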

How the data were processed

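Tumor RNA was depleted of ribosomal RNA and sequenced, and per the submitters' processing notes reads were handled with bcl2fastq, Trimmomatic 0.36, STAR 2.5.2b and RSEM 1.2.31 on mm10 (GRCm38). The authors deposited the result as a table of TPM, 1 column per tumor, whose column sums lay between 999999 and 1000001. TPM keeps no depth, so precision rests on the spread between tumors alone. Which of the sequencers used read each tumor is not given in the sources used here. Groups came from the labels, and p-values measure the spread between the 3 tumors of a group.

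Values were taken as log2(TPM + 1). Genes whose mean reached 1 TPM over the fitted tumors were tested with limma 3.58.1 (statmod 1.5.0, R 4.3.3) with a mean-variance trend, 1 coefficient per group, and contrasts for the mean over models, the difference between models (moderated F test of 11 contrasts) and each model, and p-values were adjusted by Benjamini-Hochberg over all genes (threshold 0.05). LEN was also compared with NT in each model fitted alone, while NT and Base were compared in each model within the fit of all 71 tumors. Summaries were made in Python 3.11.15 with pandas 2.3.3 and numpy 2.4.6, and figures with matplotlib 3.10.9. The genes and lists were chosen with earlier results of these data known. By rule the text names all 10 genes, all receptors LEN targets, up to 2 genes of each other list with the largest mean LEN effect, and up to 3 genes most like each of the 10, and it says where another gene was named after its value was seen. Settings also tried were a minimum of 5 TPM or none, a pseudocount of 0.1, rescaling by the upper quartile or over protein-coding genes, no trend, a replicate block, the fit of all 72 tumors, and leaving out each tumor and each model in turn.

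The replicate numbers of the labels did not pair tumors. Deviations of same-numbered tumors correlated between -0.0762 and 0.0763 in 20 NT and LEN pairs (0 over 0.1) and between -0.143 and 0.103 in 25 NT and Base pairs (1 over 0.1). No 2 tumors shared more than 2.91% of their values, so none was counted as a duplicate. Tested on simulated data for the mean LEN effect over 17351 genes, the fit recovered 98% of 200 genes given a log2 change of 1, and 39.5% for Renca alone.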

Additional observations from a re-analysis of the deposited data

Results flagged for a closer look

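The results below were picked out because the effect of the same contrast differed between the 12 models in a limma moderated F test of 11 contrasts, adjusted over all genes. For LEN against NT the adjusted p-values were 2.67e-06 for Mcam, 1.95e-05 for Pdgfrb, 6.07e-05 for Abcc9, 0.000161 for Pdgfb, 0.000227 for Pdgfra, 0.000254 for Notch3, 0.000710 for Kcnj8, 0.00518 for Cspg4 and 0.0419 for Rgs5. Such a difference was called for 35.3% of all genes. For Mcam the models ran from a ratio of mean TPM of 0.209 in Renca to 1.35 in B16-F10, and for Pdgfra from 0.470 in Renca to 2.997 in B16-F10. For Abcc9 and Kcnj8, where all 12 model means were lower, the ratios ran from 0.159 in Renca to 0.780 in BNL 1ME A.7R.1 and from 0.124 in Renca to 0.694 in MC38.

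For NT against Base the adjusted p-values were 2.82e-06 for Pdgfra, 3.27e-06 for Rgs5, 4.65e-06 for Abcc9, 2.08e-05 for Notch3, 3.55e-05 for Pdgfa, 4.49e-05 for Pdgfrb, 0.000112 for Mcam, 0.00326 for Kcnj8, 0.00343 for Cspg4 and 0.0134 for Pdgfb, where 66.5% of all genes were called. Rgs5 ran from a ratio of mean TPM of 0.451 in LL/2 to 2.15 in Hepa 1-6, and Pdgfra from 0.266 in Renca to 2.06 in BNL 1ME A.7R.1.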

How the results depend on the processing

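The 8 lower genes and the higher Pdgfa of the mean LEN effect were called under every alternative in which they were tested, except Pdgfb without B16-F10 or LL/2. At a minimum of 5 TPM the count lower was 5, since Notch3, Kcnj8 and Abcc9 were not tested. Leaving out a tumor or model gave 7 to 8 genes lower, and Pdgfra between -0.0763 and 0.0868. Pdgfra was -0.00823 after upper quartile rescaling. Over all genes, 3169 (upper quartile) and 2895 (protein-coding) were lower against 1712, and leaving out a tumor or model gave 1440 to 3262 higher against 2371. Of gene and model pairs 39 were lower in the fit of all 72 tumors against 15 in models fitted alone.

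For NT against Base, 1 gene was lower with a pseudocount of 0.1, after upper quartile rescaling and after rescaling over protein-coding genes, and 0 to 2 on leaving out a tumor or model. Values near 0 changed sign. Cspg4 was -0.0156 (pseudocount of 0.1), -0.0470 (upper quartile) and -0.0694 (protein-coding), Kcnj8 -0.00215, -0.0149 and -0.0366, Mcam -0.0203 (upper quartile) and -0.0334 (protein-coding), and Abcc9 -0.0140 (protein-coding). On leaving out a tumor or model the ranges were -0.0419 to 0.120 for Abcc9, -0.0452 to 0.0568 for Cspg4, -0.0420 to 0.0812 for Kcnj8, -0.0436 to 0.101 for Mcam, -0.126 to 0.0328 for Notch3 and -0.109 to 0.0813 for Rgs5. Over all genes 951 (5 TPM), 3516 (upper quartile) and 4455 (protein-coding) were lower against 2002, 1421 and 1193 were higher after the rescalings against 2971, and 1765 to 3891 were higher on leaving out a tumor or model. Gene and model pairs higher numbered 11 (upper quartile) and 9 (protein-coding) against 17, and 14 to 18 on leaving out a tumor. The cause of these shifts was not tested.

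Leaving out a tumor or model gave 5 to 10 genes whose LEN effect differed between models. Within models, leaving out a tumor gave 0 to 3 genes lower and 0 to 1 higher in B16-F10, 3 to 4 and 1 in BNL 1ME A.7R.1, 0 to 2 and 0 to 1 in Hepa 1-6, 0 to 2 lower in LL/2, 0 to 1 lower in MBT2, and 5 to 6 and 0 to 2 in Renca. With the replicate number as a block, 8 genes were lower and 1 higher for LEN and 0 and 1 for NT against Base, and of all genes 1817 and 2444, and 1977 and 2910. In models with at least 2 same-numbered pairs the block gave 12 pairs lower and 4 higher, and Pdgfb in B16-F10 lost its call (-0.73). Without the block the calls in these models were 4 lower and 2 higher in B16-F10, 1 lower in LL/2, and 6 lower and 2 higher in Renca. The block could not be fitted in RAG, Hepa 1-6, 4T1 and BNL 1ME A.7R.1. Depth cannot be weighed, since TPM holds none.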

Other observations

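Some of the 3 genes most like each pericyte marker in the deviations of all tumors from their group mean are given here, chosen after their values were seen. Epas1, a hypoxia-inducible factor subunit that is high in endothelial cells, had an r of 0.75 with Rgs5 and 0.71 with Notch3. Esam, an adhesion molecule of endothelial junctions, had 0.74 with Rgs5, Nos3, the endothelial nitric oxide synthase, had 0.62 with Mcam, and S1pr1 had 0.53 with Kcnj8. Cspg4 was most like Col6a3 and Hspg2, at 0.61 and 0.60, followed by Bmp1 at 0.59, and Pdgfra was most like Aebp1 at 0.70. Pdgfa had no gene above an r of 0.44, that of Sox4. Tumors of a group share their model and day, and these values are a description.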
